A study of Rattus norvegicus with 2 samples.

Results

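The genes described here are the thrombin receptor gene F2r, its relative F2rl1, and 7 further genes that start coagulation or activate plasminogen or restrain either step: F3, Tfpi, Plau, Plat, Plaur, Serpine2 and Serpinb2. Every probe set annotated to exactly 1 of these 9 symbols was taken, which gave 12 probe sets of 20826 with a single symbol, and 9 genes of 14217. The group was chosen by the differences already seen between these same 2 arrays, in particular the F2r ratio, so the ratios below are a description and no test was made. Each gene is represented by its brightest probe set (mean of log2 signals). Tfpi, Plau and Plaur have 2 probe sets each and the other 6 genes have 1.

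Affymetrix rat arrays were hybridised with RNA of AT6.1, a cancer cell line of the rat prostate. One array came from a clone (number 7) that carried the pcDNA3 vector with Ndrg-1 inserted, and 1 from a clone (number 9) that carried pcDNA3 with no insert. Both clones were cultured in RPMI with fetal calf serum at 10% and under G418 at 0.3 mg/mL, the drug that holds transfected cells under selection. With 1 array per group there was no replicate, clone and insert cannot be told apart, and no p-value could be given.

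Coagulation begins when tissue factor, a membrane protein, meets its plasma ligand, and it leads to thrombin. Thrombin also acts on cells by cutting the outer end of protease-activated receptors (PARs), G protein-coupled receptors that are switched on by the new end the cut exposes. The plasminogen system runs alongside it: urokinase and tissue plasminogen activator turn plasminogen into plasmin, a surface receptor gathers urokinase at the cell edge, and serpins trap these proteases one to one. Both systems are studied in cancer for their part in invasion.

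Each value is a probe set signal, a linear intensity in which a larger number is a brighter probe set. Signals of different probe sets are not on a common scale of abundance, so only the 2 arrays are compared. The median of all signals, 31.0, served as a floor: lower signals were set to it, a ratio with 1 array under it is a bound, and a gene with both arrays under it has no ratio. Of the 14217 genes, 9183 exceeded the floor in 1 array or both and are called measured. A log2 ratio is that of the Ndrg-1 clone over the vector clone. The only error the arrays provide is the disagreement between probe sets of the same gene, with an SD of 0.23 on the log2 scale (5341 probe sets of 2298 genes). These probe sets come from genes with at least 2 above the floor in both arrays. They were split into 3 groups of about equal size by the mean brightness of their gene. The SD was 0.28 in the dimmest group, 0.22 in the middle and 0.18 in the brightest, above a signal of 270. It leaves out the spread between cultures, clones and arrays.

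Ndrg1 itself had signals of 1353 in the Ndrg-1 clone and 1062 in the vector clone on its brighter probe set, a log2 ratio of 0.34, and 153.7 against 181 on the dimmer, a log2 ratio of -0.24. The probe sets for the inserted gene therefore did not show a 2-fold difference, and how much of the insert they cover is not known here. Of 10 epithelial markers with a probe set, 1 was measured (Krt8, 38.72 in the Ndrg-1 clone against 46.22 in the vector clone), and of 4 prostate markers, 1 (Tmprss2, 35.39 against 18.75). The cells are therefore called by the name of their line and not by a cell type. The ratio of 3' to 5' signal was 1.21 in the Ndrg-1 clone and 1.24 in the vector clone for beta-actin, and 1.05 and 1.03 for GAPDH.

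Of the 9 genes, 7 were measured, 5 of them in both arrays. F2r and F3 reached 2-fold or more upward in the Ndrg-1 clone and 0 did so downward. Of all 9183 measured genes 1.62% reached 2-fold upward and 1.50% downward, and since the group was chosen with these ratios known, nothing is read from its share. The other 5 measured genes lay below 0, but only 3 of them by more than 1 SD of the disagreement between probe sets. Among the 5, Tfpi was at -0.02 with signals at the floor itself. The median log2 ratio of the 7 was -0.23, beside 0.0029 over all measured genes. Plau and Plat were under the floor in both arrays. In a culture, fewer cells that express a gene and less of its RNA in each cell cannot be told apart.

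**Figure D1:**
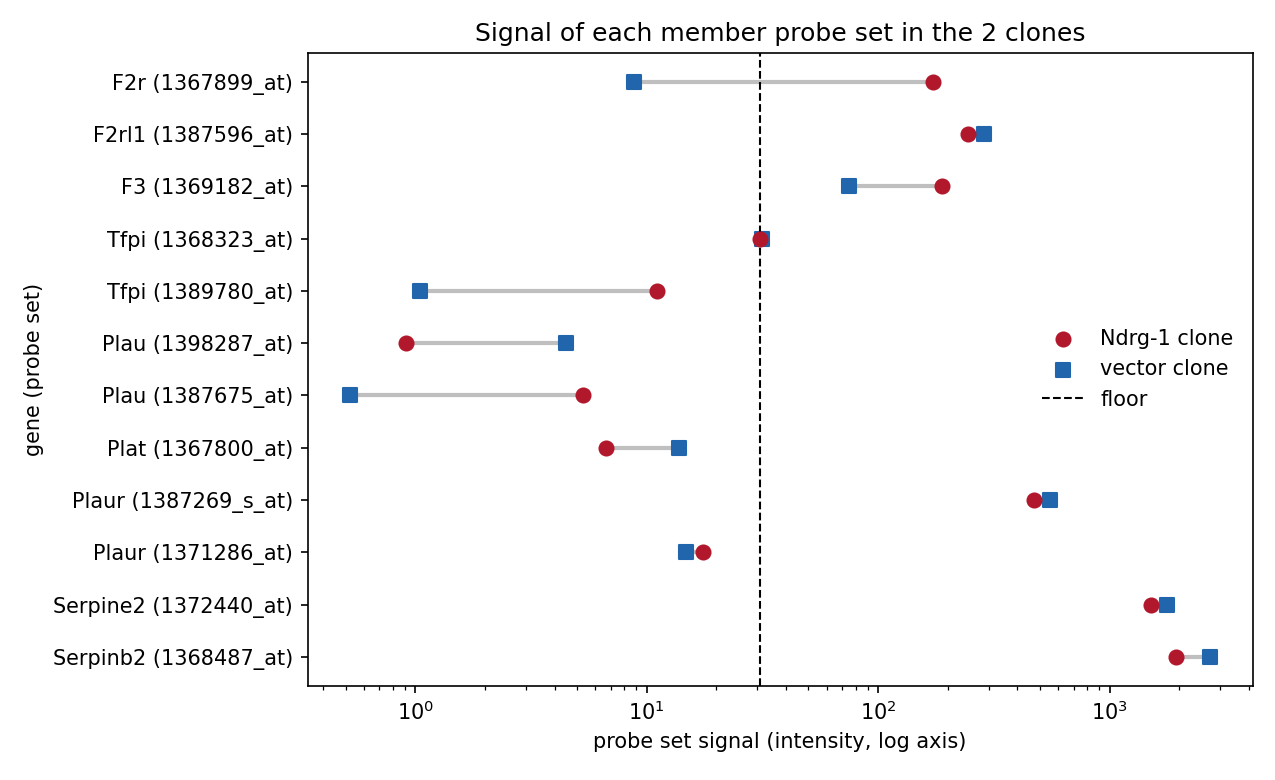
Signal of each of the 12 probe sets (rows) in the Ndrg-1 clone (red circles) and the vector clone (blue squares), 1 array per group, on a log axis, with the floor of 31.0 as a dashed line. The red circle of F2r lies far to the right of the floor and its blue square to the left of it, F3 is separated with both points above the floor, and 5 probe sets have both points left of it.

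F2r encodes PAR1, the main thrombin receptor of many cell types. Its probe set showed a signal of 171.9 in the Ndrg-1 clone and 8.851 in the vector clone. The vector signal was under the floor, so F2r was higher by at least 5.55-fold in the Ndrg-1 clone (log2 ratio of at least 2.47). The vector signal was also close to the 25th percentile of all signals, 7.65. With the floor placed there the ratio was 19.4-fold, a figure that rests on a vector signal just above that floor. No further F2r probe set was available to check it.

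F2rl1 encodes PAR2, the sister receptor that trypsin, tryptase and coagulation proteases other than thrombin cut. It showed a signal of 244.9 in the Ndrg-1 clone and 286.5 in the vector clone, a log2 ratio of -0.23, equal to 1 SD of the disagreement described above. Of the measured genes, 21.8% had a lower ratio. Unlike F2r, F2rl1 was well above the floor in both arrays. F2rl2, the gene of PAR3, had 37.1 in the Ndrg-1 clone and 13.28 in the vector clone, with a log2 ratio of at least 0.26 and of 1.48 with the lower floor. F2rl3, the gene of PAR4, was under the floor in both arrays.

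F3 encodes tissue factor, the trigger of the extrinsic pathway. Its signal was 188.7 in the Ndrg-1 clone and 74.69 in the vector clone, 2.52-fold higher with both arrays above the floor. The log2 ratio of 1.33 exceeded 4 times the SD of 0.28 among dim probe sets. Tfpi encodes the inhibitor that blocks the tissue factor complex. Its brighter probe set sat at the floor itself, with 30.9 in the Ndrg-1 clone and 31.39 in the vector clone, and the dimmer read 11.06 against 1.044. At these signals Tfpi was neither shown to differ nor shown to be equal between the clones.

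**Figure D2:**
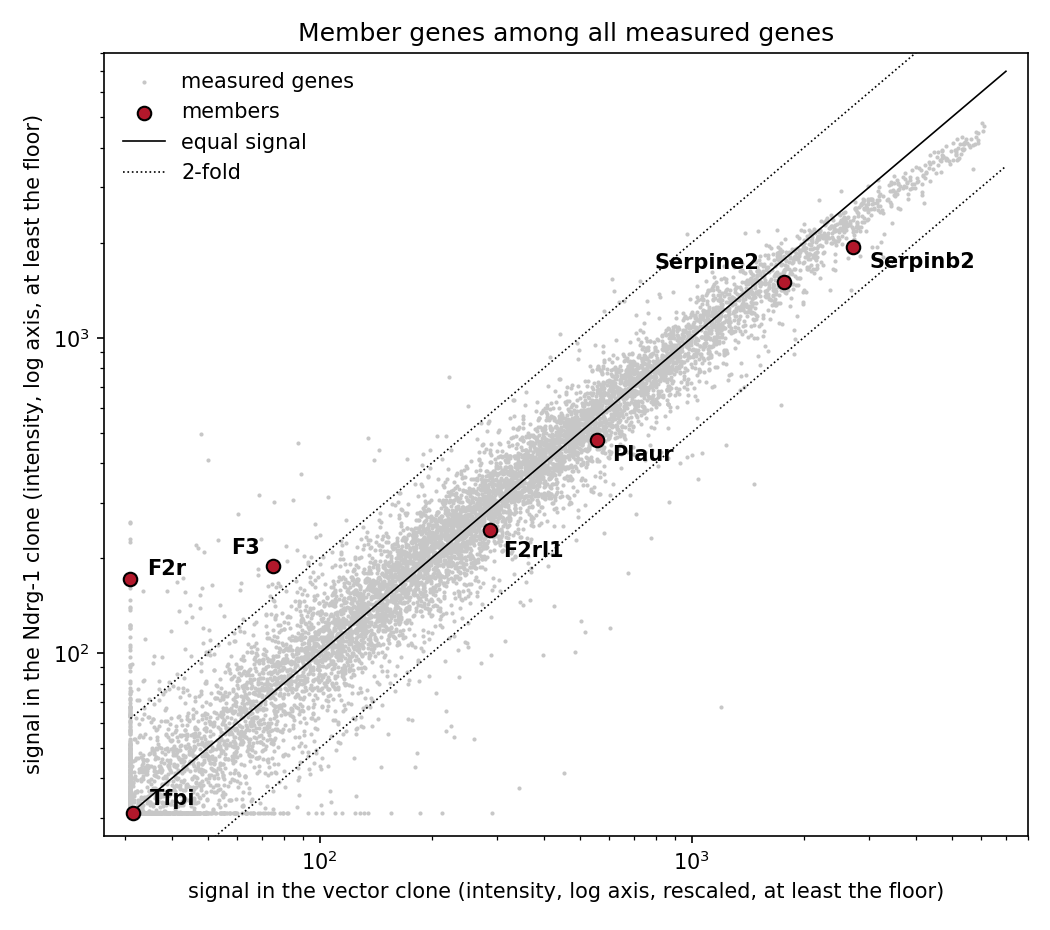
Signal of every measured gene in the Ndrg-1 clone (vertical log axis) against the vector clone (horizontal log axis, rescaled), with signals under the floor drawn at the floor. Grey points are the 9183 measured genes and red points the 7 measured genes of this group; F2r and F3 lie above the upper dotted 2-fold line, F2rl1, Plaur, Serpine2 and Serpinb2 just below the line of equal signal, and Tfpi in the corner at the floor.

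The plasminogen activators themselves gave no usable signal. Plau encodes urokinase, and its probe sets read 0.9117 and 5.291 in the Ndrg-1 clone against 4.484 and 0.5254 in the vector clone. The 2 probe sets ordered the arrays in opposite ways, and all 4 signals were under even the 25th percentile. Plat encodes tissue plasminogen activator, and its single probe set read 6.67 in the Ndrg-1 clone and 13.84 in the vector clone. With the lower floor, its log2 ratio was -0.86 or lower, the Ndrg-1 clone being at that floor. A signal under the floor shows that the probe set did not stand out, not that the gene was silent.

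Plaur encodes the urokinase receptor, a protein anchored to the membrane by a lipid. Its brighter probe set had 473.5 in the Ndrg-1 clone and 555.4 in the vector clone, a log2 ratio of -0.24. The dimmer read 17.51 against 14.75, both under the floor, and leaned the other way (0.24 with the lower floor). The brighter probe set has an identifier ending in _s_at, which Affymetrix gives to sets that may match several transcripts.

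Serpine2 encodes protease nexin-1, a serpin that inhibits thrombin, urokinase and plasmin at the cell surface. It showed a signal of 1504 in the Ndrg-1 clone and 1764 in the vector clone, a log2 ratio of -0.23. Serpinb2 encodes plasminogen activator inhibitor 2, which inhibits urokinase. It had 1936 in the Ndrg-1 clone and 2704 in the vector clone, 1.40-fold lower in the Ndrg-1 clone (log2 ratio -0.49), and 7.46% of measured genes had a lower ratio. Both inhibitors lie in the bright range, where 489 of 593 measured genes whose mean signal reached 1500 were lower in the Ndrg-1 clone (median log2 ratio -0.18). With that trend removed, the log2 ratio was -0.31 for Serpinb2 and -0.12 for Serpine2.

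The ratios of F2rl1, Plaur and Serpine2 were nearly equal (0.852, 0.850 and 0.850 on the linear scale). Each lay about 1 SD of the disagreement over all probe sets (0.23) below 0. Plaur and Serpine2 lie in the signal range of the brightest group, where the SD was 0.18, and their shifts exceeded that. Shifts of this size still occur between probe sets of a single gene, so these 3 genes are not called different. Serpinb2 exceeded 2 SD over all probe sets (0.46) only before the trend was removed. Scaling to the hybridisation spikes placed all 4 genes at or above 0 (0.31 for F2rl1, Plaur and Serpine2, 0.06 for Serpinb2), while it moved the median measured gene to 0.53. Scaling to the poly-A spikes placed them at -0.45, -0.45, -0.45 and -0.70, with the median gene at -0.21. Each spike scaling moves the measured signals of an array by 1 factor, so it leaves the place of these genes relative to the median gene nearly as it was.

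F2r and F2rl1 stand next to each other on chromosome 2 in the order of genes with a probe set, and F2rl2 follows after Iqgap2, a scaffold protein gene. Gene order followed RefSeq's annotation of GRCr8, a rat genome assembly. Iqgap2 was under the main floor in both arrays, with 16.5 in the Ndrg-1 clone against 24.11 in the vector clone. Further out, Aggf1 had a log2 ratio of 0.01, Zbed3 of -0.13 and Poc5 of 0.57. On one side of F2r, F2rl1 thus stood at -0.23 and Aggf1 at 0.01. On the other side, with the lower floor, Iqgap2 stood at -0.55 and F2rl2 at 1.48. F3 lies on the same chromosome in another place, between Cnn3 (0.13) and Abcd3 (0.08), the nearest genes with a probe set. Beyond these, Tlcd4 had 15.38 in the Ndrg-1 clone against 48.97 in the vector clone. Its log2 ratio was -0.67 or lower, and -1.68 with the lower floor. Dnttip2 was at 0.55 and Gclm at 0.33, while Alg14, Rwdd3 and Ptbp2 were at -0.21, -0.13 and -0.17.

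Serpinb2 lies on chromosome 13 in a row of clade B serpin genes, whose values are given here because they were seen to differ. Its neighbour on one side, Serpinb7, had 806.7 in the Ndrg-1 clone and 1168 in the vector clone, a log2 ratio of -0.54. Serpinb10 on the other side had 1170 against 1916, a log2 ratio of -0.72. These 3 adjacent genes had lower signals in the Ndrg-1 clone in the main setting, with the bright trend removed (-0.50 for Serpinb7 and -0.62 for Serpinb10) and after quantile normalization (-0.51 and -0.65, and -0.32 for Serpinb2). When the arrays were scaled to the hybridisation spikes, Serpinb10 stood at -0.17, with Serpinb2 at 0.06 and Serpinb7 at 0.01. Serpinb3, 2 genes beyond Serpinb7, was at 0.24, and Serpinb11 and Serpinb12 were under the floor in both arrays. Serpins of this clade resemble each other in sequence, and how far their probe sets share signal was not tested. Around all 9 genes together, taking the 5 genes with a probe set on each side, 63 of 80 neighbours were measured and 0 reached 2-fold at the main floor, with log2 ratios or bounds from -0.88 to 0.78.

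**Figure D3:**
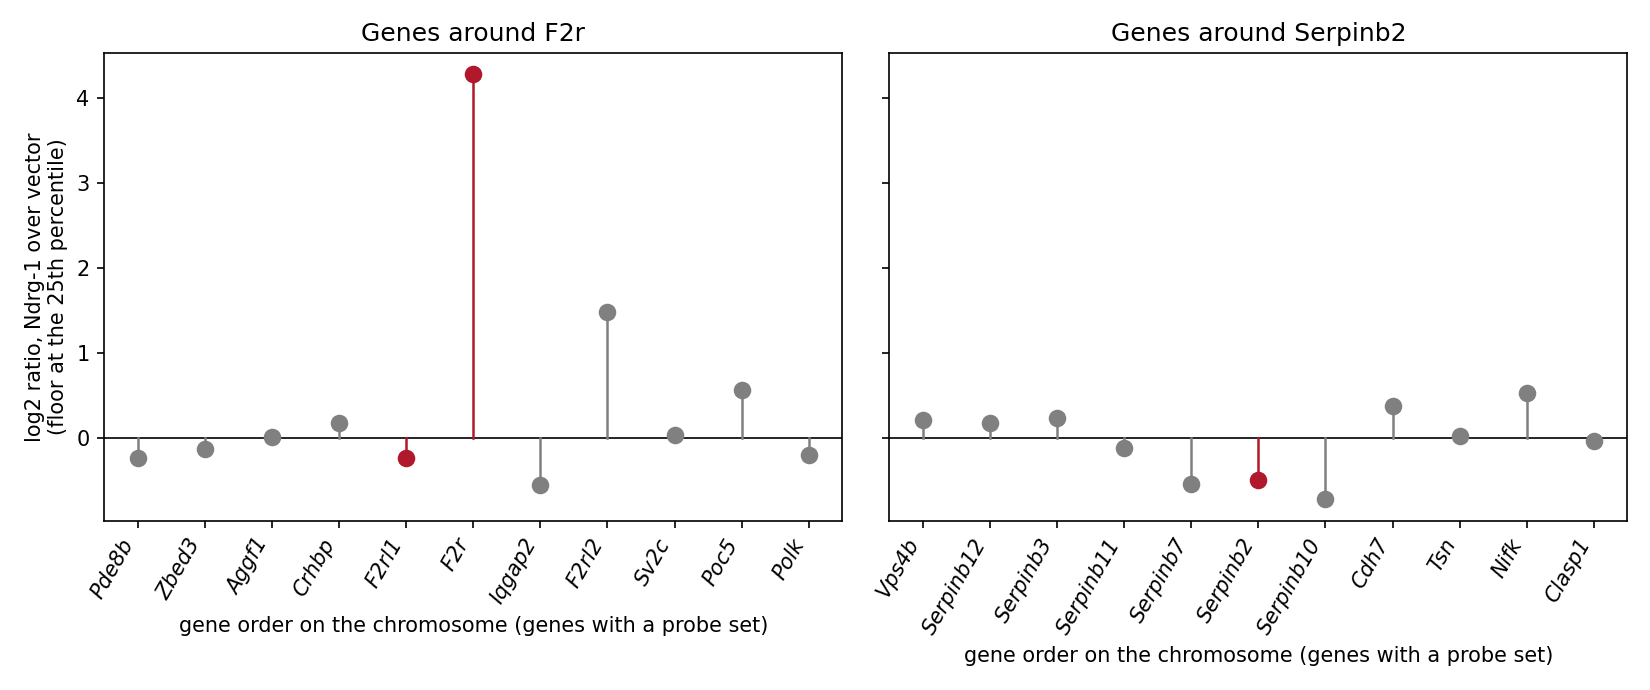
Log2 ratio of the Ndrg-1 clone over the vector clone (vertical axis, floor at the 25th percentile, 7.65) for the 5 genes with a probe set on each side of F2r (left) and of Serpinb2 (right), in chromosome order. Red points belong to the group described here and grey points do not; F2r stands at 4.28 beside F2rl1 at -0.23 and Iqgap2 at -0.55, and Serpinb7, Serpinb2 and Serpinb10 all lie below 0.

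The RefSeq promoter table (GRCr8) held windows of 300 bases, 250 before and 50 after the transcript start, for 6 of the 9 genes: F2r, Plau, Plaur, Serpine2, Serpinb2 and, with 2 windows, Tfpi. The AP-1 motif TGANTCA is its own reverse complement and was counted once per position. It was found in the windows of F2r, Plaur and Serpinb2, 3 of the 6 genes and of their 7 windows, against 7.33% of all 33469 windows. AP-1 is the dimer of Fos and Jun family proteins and is known from human cells as a factor at the urokinase receptor promoter. The 250 bases before the start are shown for these 3 genes, since they share the motif but not the difference between the clones. They lie at chr2:28620580-28620829 (minus strand) for F2r, chr1:89181113-89181362 (plus strand) for Plaur and chr13:24055771-24056020 (plus strand) for Serpinb2, and the motif begins 194, 83 and 189 bases before the start. They read 5' to 3' on the strand of the gene, with the motif in capitals.
F2r: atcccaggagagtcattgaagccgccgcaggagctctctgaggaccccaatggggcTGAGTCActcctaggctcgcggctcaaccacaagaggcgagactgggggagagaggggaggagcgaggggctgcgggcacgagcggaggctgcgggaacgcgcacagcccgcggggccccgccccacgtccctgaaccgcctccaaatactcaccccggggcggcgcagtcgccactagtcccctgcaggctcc
Plaur: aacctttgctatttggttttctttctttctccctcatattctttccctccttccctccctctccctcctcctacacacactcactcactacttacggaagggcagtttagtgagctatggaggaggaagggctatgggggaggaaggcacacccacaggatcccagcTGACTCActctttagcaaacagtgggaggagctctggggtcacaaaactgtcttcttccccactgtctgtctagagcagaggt
Serpinb2: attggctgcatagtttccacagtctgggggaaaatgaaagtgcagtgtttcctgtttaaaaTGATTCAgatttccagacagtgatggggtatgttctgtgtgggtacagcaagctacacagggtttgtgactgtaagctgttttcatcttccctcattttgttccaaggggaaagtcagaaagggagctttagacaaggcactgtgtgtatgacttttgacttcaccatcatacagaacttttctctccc

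F2r had TGAGTCA, Plaur TGACTCA and Serpinb2 TGATTCA. The 3 genes differed in their ratios, at least 2.47 for F2r, -0.24 for Plaur and -0.49 for Serpinb2 on the log2 scale. The GC box GGGCGG was present in windows of 4 of the 6 genes (33.1% of all windows), among them F2r. The Ets core CAGGAA was in windows of 3 (29.1%), the CRE core TGACG in those of 2 (21.2%) and TATAAA in those of 0 (14.2%), on either strand. These counts are per gene and the percentages per window, so Tfpi, with 2 windows, counts if either holds the motif. The F2r window was 69.7% G and C, against 42.7% in that of Serpinb2. A match describes the letters and is no evidence of binding.

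The genes around this group in the same pathways were taken as lists, together with all other measured genes as background. The lists too were chosen with earlier results of these data known, so nothing is read from their shares. In those lists the genes named below that did not reach 2-fold were chosen after their values were seen, except for the top pair of a list in which none did. The 5 genes Fos, Fosb, Junb, Egr1 and Klf4 belong to both of the last lists described.

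Of 27 other coagulation genes with a probe set, 8 were measured, with a median log2 ratio of 0.04. Of these, 1 was at least 2-fold higher (12.5%, against 1.62% of all measured genes) and 0 lower. Thbd encodes thrombomodulin, which binds thrombin and turns it toward activating protein C. It had 119.9 in the Ndrg-1 clone and 13.2 in the vector clone, at least 3.87-fold higher. Its other probe sets read 50.67 against 1.649 (log2 ratio of at least 0.71) and 25.58 against 3.415. The last was under the floor in both arrays and has no ratio. The lowest measured gene was Ggcx, the vitamin K-dependent carboxylase of clotting factors, with 202.7 against 362.5 (log2 ratio -0.84). The measured genes F8, Pros1, Vkorc1, Lman1 and Mcfd2 lay between -0.30 and 0.28, and F2rl2 had the bound given above. Of the other numbered clotting factor and fibrinogen genes with a probe set, F8 was the only one measured, while prothrombin (F2) and F10 were under the floor in both arrays. The count higher was 3 with the lower floor and 0 with the floor at the 75th percentile. The count lower was 1 with the lower floor, the poly-A spikes or a pseudocount of 16. With the hybridisation spikes as scale the list median was 0.45.

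Of 22 other plasminogen system genes with a probe set, 15 were measured. Only Vldlr reached 2-fold (6.67%, against 1.62% of all measured genes), and 12 of the 15 lay below 0 (median -0.31). Of the 15, 20% lay above 0, against 50.4% of all measured genes. Vldlr, a lipoprotein receptor that also takes up complexes of urokinase with its inhibitor, had 749.5 in the Ndrg-1 clone and 222.3 in the vector clone (3.36-fold higher), with its 3 other probe sets at 0.91, 1.56 and 1.60. Lrp1, the larger receptor of the same family, had 601.3 against 912.2 (log2 ratio -0.61), and the integrin chain Itga3 455.3 against 769.2 (-0.76). Plgrkt, a plasminogen receptor, was higher, with 439.2 against 286.9 (0.61). The bright plasminogen-binding genes Anxa2, S100a10 and Eno1 stood at -0.50, -0.43 and -0.41, and at -0.21, -0.14 and -0.11 with the bright trend removed. A second measured Anxa2 probe set leaned the other way, at 0.19. So did those of Lrpap1 (-0.43 on the brighter, 0.091 on the other) and Igf2r (-0.31 and 0.17). The other measured probe sets of Itgav and Itgb1 stayed below 0, and those of Itgb5 were at -0.35 and 0.0094. Without the bright trend the median of the list was -0.11, and with the median over probe sets for each gene it was -0.10. With the hybridisation spikes as scale it was 0.19. The count at least 2-fold higher was 3 with the lower floor and 2 with those spikes or with a pseudocount of 16 in place of the floor.

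Of 16 proteases known to cut PARs with a probe set, 4 were measured and 0 reached 2-fold. Klk6, a kallikrein-related peptidase, had 191.3 in the Ndrg-1 clone and 116.4 in the vector clone (log2 ratio 0.71). Tpsb2, a tryptase, had 49.02 against 8.691, a log2 ratio of at least 0.66 and of 2.49 with the lower floor, so the pair cannot be ordered. The count at least 2-fold higher was 1 with the lower floor, with that pseudocount and with the hybridisation spikes. Furin stood at -0.14. The list median of 0.43 rests on 4 genes and was -0.11 with the lower floor.

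Of 32 genes of G protein and arrestin signalling below the PARs, 25 were measured. Of these, 0 were at least 2-fold higher and 1 was lower (4%, against 1.50% of all measured genes). Rgs16 speeds the shut-off of G protein alpha subunits. It had 32.91 in the Ndrg-1 clone, just above the floor, and 100.2 in the vector clone, 3.05-fold lower on its only probe set. Its relative Rgs2 leaned the other way, with 39.78 against 10.82 (log2 ratio of at least 0.36, and 1.87 with the lower floor). The phospholipase Plcb4 was at 0.83 and the kinase Prkcd at 0.60, while the arrestin gene Arrb1 was at -0.51. The G protein gene Gna12 and the GTPase gene Rhoa, which carry PAR1 signals to the cytoskeleton, stood at -0.05 and -0.04. The list median was -0.14.

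Of 31 genes known to be induced by thrombin with a probe set, 24 were measured. Of these, 5 were at least 2-fold higher (20.8%, against 1.62% of all measured genes) and 0 lower. The list had 17 genes above 0 (70.8%, against 50.4% of all measured genes), with a median of 0.24. As stated above, nothing is read from these shares. The 5 genes at least 2-fold higher were Fos, Fosb, Atf3, Il6 and Ccl2, and the vector clone was under the floor for the first 4. These 4 thus count as measured only through the Ndrg-1 clone, where they are high. Fos, an AP-1 subunit, had 137.4 in the Ndrg-1 clone and 19.64 in the vector clone (at least 4.43-fold), but its second probe set, under the floor in both, read 11.14 against 28.34. Ccl2, a monocyte chemokine, had 1535 against 609.5 (2.51-fold higher). Other genes of the list did not reach 2-fold, such as Cxcl1 at 0.76, Egr1 at 0.09, Ccn2 at -0.38 and Nfkbia at -0.49. The count higher was 10 with the hybridisation spikes as scale, 7 with the lower floor and 1 with the floor at the 75th percentile, and the median ranged from 0.05 with the poly-A spikes to 0.68 with the hybridisation spikes. These genes answer to many stimuli besides thrombin, and the medium held serum in both cultures. Whether their ratios go with that of F2r was not tested, since 2 arrays give a single ratio per gene.

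Of 19 transcription factor genes linked to the Plau and Plaur promoters, 17 were measured. The 2 at least 2-fold higher (11.8%, against 1.62% of all measured genes) were again Fos and Fosb, and the list median was 0.12. The count higher was 4 with the hybridisation spikes as scale and 0 with the floor at the 75th percentile. Ets2 was at 0.79, Jund at 0.54, Fosl1 at 0.31 and Jun at -0.22. Plaur stood at -0.24 and Plau had no usable signal beside them. With the poly-A spikes as scale the list median was -0.10, and with the hybridisation spikes it was 0.63.

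**Figure D4:**
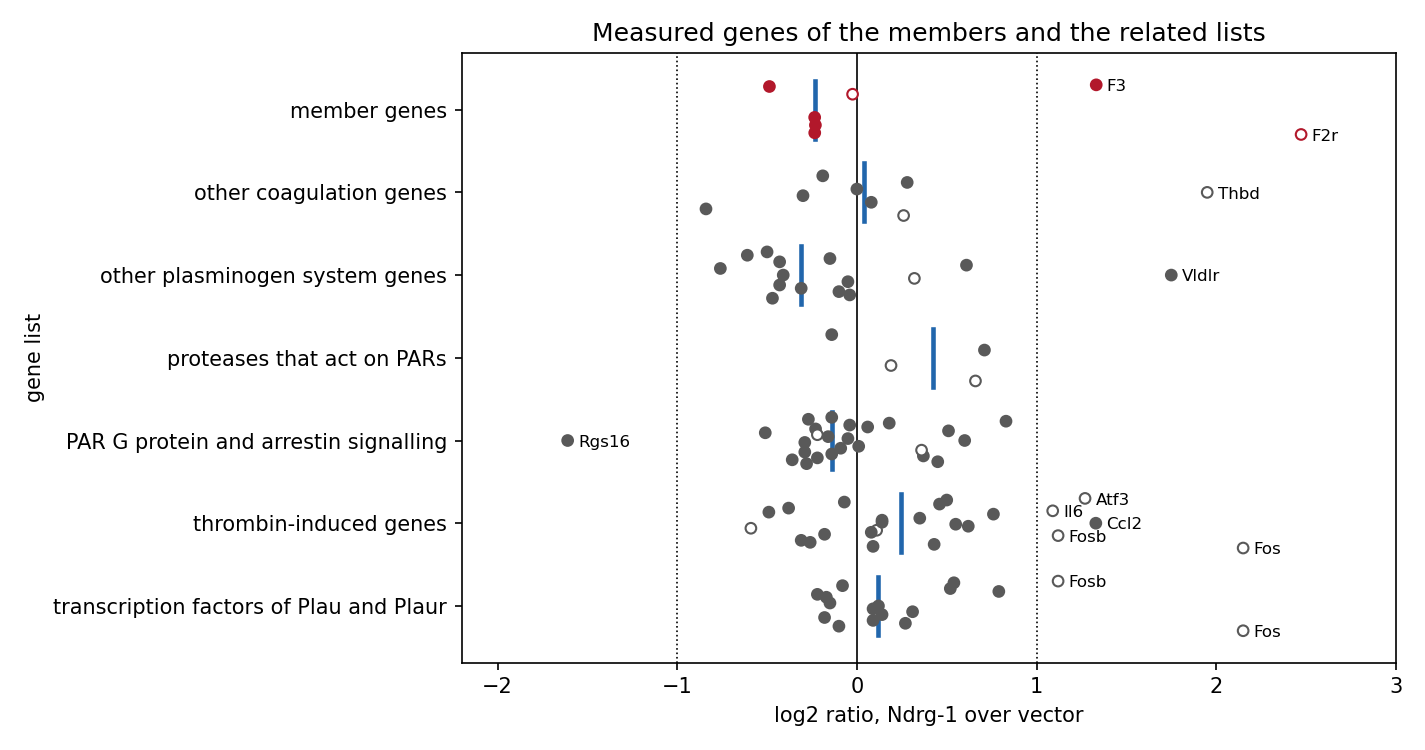
Log2 ratio of the Ndrg-1 clone over the vector clone (horizontal axis) for each measured gene of the group (red, top row) and of 6 related lists (grey). Open circles are bounds with 1 array at the floor, blue bars are medians and dotted lines mark 2-fold; F2r, F3, Thbd, Vldlr and 5 genes of the thrombin-induced list lie beyond the right-hand line, and Rgs16 alone beyond the left-hand one.

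F2r, F3 and Thbd are also expressed in vessel and blood cells, so markers of those cells were examined beside them. Of 10 endothelial markers with a probe set, 3 were measured and all 3 had higher signals in the Ndrg-1 clone: Eng 91.36 against 28.7, Egfl7 145.3 against 88 and Esam 45.76 against 14.98. For Eng and Esam the vector clone was under the floor. The other endothelial markers were under the floor in both clones and did not lean one way. Lower in the Ndrg-1 clone were Pecam1 (3.631 against 12.12), Kdr (4.282 against 11.4), Tie1 (1.216 against 11.8), Tek (10.4 against 13.92) and Emcn (3.494 against 10.39). Cldn5 (21.96 against 13.27) and Vwf (2.608 against 2.005) were higher. The summed signal of the 10 was 330 in the Ndrg-1 clone and 206.6 in the vector clone. Of 5 platelet and megakaryocyte markers 1 was measured (Treml1, 32.57 against 22.4), with sums of 50.17 and 57.19. Of 11 macrophage and leukocyte markers 3 were measured: Cd68 with 205.5 against 114, Cd14 with 209.8 against 308.2 and Csf1r with 15.68 against 33.32. Of 10 fibroblast and smooth muscle markers 4 were measured, among them Acta2 at 208.1 against 208.4 and Col3a1 at 355.8 against 1038, which was 2.93-fold lower. Myh11 had 42.48 against 25.19, a log2 ratio of at least 0.46, and Des 38.84 against 46.31 (-0.26). The part of other cells in the ratios of the coagulation genes was not tested.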

How the data were processed

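The 2 Affymetrix arrays of AT6.1 clones were compared. The deposited values are 1 intensity per probe set and array, and per the submitters' processing notes the authors used GCOS 1.3. How probe sets were summarised and scaled, detection calls and a genome build: not given in the sources used here. The mean signal without the outer 2% at each end was 150.0 in both arrays. Of 31042 probe sets (57 controls left out), 20826 carried 1 gene symbol, 436 several and 9780 none in the platform annotation; 20758 matched RefSeq (GRCr8) by gene ID.

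The vector array was multiplied by 1.003, which put at 0 the median log2 ratio over probe sets brighter than the median, signals were floored at their median, and log2 was taken. The number of arrays limits the precision. A difference was counted at 2-fold, and no test was run. The steps were tested on simulated data. The members, lists and settings were chosen with earlier results of these data known. Genes named by rule were all 9 members, list genes at least 2-fold different or the top pair of a list without any, measured markers, Ndrg1 and neighbours of F2r and F3; all other genes named, the Serpinb2 neighbours among them, were added after their values were seen. The 10 alternatives cover scaling, floor and choice of probe set; a lowess span of 0.4 was used. Python 3.11.15, numpy 2.4.6, pandas 2.3.3, statsmodels 0.14.6 and matplotlib 3.10.9 were used.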

Additional observations from a re-analysis of the deposited data

How the results depend on the processing

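Under 9 of the 10 alternatives 2 of the genes described here were at least 2-fold higher. With the floor at the 75th percentile (171), 0 were, because the vector signals of F2r and F3 and nearly all of the F2r signal then lie under the floor by construction. None was at least 2-fold lower under any of the 10. The F2r log2 ratio ranged from 0.01 (that floor) to 4.28 (floor at the 25th percentile) and was 2.92 with a pseudocount of 16, and that of F3 ranged from 0.14 (floor at the 75th percentile) to 1.88 (hybridisation spikes). Much of the count of 9 was fixed in advance. Except in quantile normalization, scaling changed only the vector array, where F2r stayed under the floor. Its log2 ratio therefore stayed at 2.47 without rescaling, with the bright trend removed and with either spike scale. F2r and F3 have 1 probe set each, neither ending in _x_at or _s_at, so the choice of probe set could not change them. The median of the genes described moved to 0.31 with the hybridisation spikes as scale. Over all genes, 679 were at least 2-fold higher and 40 lower with those spikes, and 254 lower with the poly-A spikes. With the floor at the 25th percentile 446 were higher and 463 lower, and with that at the 75th 23 and 34. Without _s_at probe sets Plaur had no measured probe set. No paired analysis was possible because each group has 1 array.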

Other observations

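The serpin family as a whole, with Serpine2, Serpinb2, Serpinb7 and Serpinb10 included, was looked at after the values were seen. Of 33 serpin genes with a probe set, 12 were measured, 8 of them below 0, with a median log2 ratio of -0.26. Of all measured genes, 50.4% lay above 0. Serpinb2, Serpine2, Serpinb6a, Serpinb10 and Serpinh1 lie in the bright range, where 489 of 593 measured genes were lower in the Ndrg-1 clone. The family median with that trend removed was not computed. Serpinb6a, an intracellular serpin, had 2623 in the Ndrg-1 clone and 3197 in the vector clone (-0.29), and Serpinb1a was at -0.45 or lower with the Ndrg-1 clone under the floor. Serpinf1, which encodes the secreted factor PEDF, was the only one to reach 2-fold, with 180.9 against 368.1. Serpinb9, an inhibitor of granzyme B, stood at 0.00, and Serpinh1, the collagen chaperone, at 0.16 with 1716 against 1533. Of the 12, 0 were at least 2-fold higher.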
